A study of Mus musculus with 7 samples.

Results

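The genes described here are 9 members of the TGF-beta system: the ligands Tgfb1, Tgfb2 and Tgfb3, the receptors Tgfbr1, Tgfbr2 and Tgfbr3, the latent TGF-beta binding proteins Ltbp1 and Ltbp2, and Tgfbi, a secreted matrix protein named for its induction by TGF-beta. They were taken by symbol from a list and matched to Ensembl identifiers through a reference list of gene names. Their coordinates are those of the GENCODE M21 annotation of GRCm38. They are 9 of the 22629 rows of a table of read counts from mouse pancreatic ductal adenocarcinoma (PDA) tumors, and all 9 passed the filter on low counts.

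TGF-beta is secreted as an inactive complex in which the propeptide wraps the ligand, and latent binding proteins tether that complex to the extracellular matrix until integrins or proteases free the ligand. Free ligand brings the type II receptor, TGFBR2, together with the type I receptor, TGFBR1, which then phosphorylates the transcription factors SMAD2 and SMAD3. These enter the nucleus with SMAD4. In pancreatic carcinomas the pathway is known for restraining the division of epithelial cells, for driving matrix production by fibroblasts and for damping T cell responses.

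RNA-seq was performed on 7 subcutaneous (s/c) tumors harvested 2 weeks after cells of the 1242 line were placed in C57BL/6 mice. This line came from a pancreatic tumor of an engineered mouse that carried Cre driven by the Pdx1 promoter and a mutant Trp53 allele that Cre switches on. The comparison addresses how PDA tumors differ when the cancer cells express a foreign antigen. The sgScramble group, labelled scramble, is 3 tumors, numbered 1, 4 and 5, formed with 1242 cells that had received SpCas9 and a scrambled guide. The sgScramble-icOVA group, labelled scrambleOVA and called icOVA here, is 4 tumors, numbered 15, 16, 18 and 2, formed with sgScramble cells given a lentiviral vector for doxycycline (Dox)-inducible cytoplasmic ovalbumin. The labels do not give the age of the mice, and the study's methods put it at 6 weeks on purchase, 2 weeks before use.

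Several features of the icOVA cells come with the antigen. According to the study's methods they were sorted by FACS and cloned from single cells after transduction with a vector that also encodes GFP, were inoculated in larger number than is usual there for s/c tumors and were induced through Dox food. For the 3 sgScramble tumors the methods indicate no inoculum other than the usual one for s/c tumors, which holds there unless indicated otherwise. Neither the labels nor the methods say for these tumors whether the mice ate that food, or which clone was used. They also do not say whether the cells carried the vector without induction. The study describes s/c tumors of vector-bearing cells in mice not given Dox. If the sgScramble cells were of that kind, the larger inoculum would apply to them too. The antigen, the clone, the vector, the inoculum and Dox cannot be told apart in this design. Each tumor is a separate sample in the labels, which do not say that each came from its own mouse, so p values measure the spread between these samples.

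Total counts ran from 30904855 to 37510591 per tumor. Levels are given as CPM, the reads of a gene relative to all reads of its library, with library sizes scaled by the TMM method. The comparison used the quasi-likelihood test of edgeR, and p values were adjusted by Benjamini and Hochberg's method over the 17489 genes tested. A gene was called when its adjusted p was under 0.05. Fold changes are icOVA against sgScramble, on a log2 scale with the standard error (SE). The OVA row served to check the labels. It had 151, 85 and 92 counts in sgScramble tumors 1, 4 and 5 against 6871, 10750, 3413 and 7989 counts in icOVA tumors 15, 16, 18 and 2.

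Of the 9 members, Tgfb3 fell in icOVA tumors and no other member was called. Its level came to 0.517 of that in sgScramble tumors. Thus 1 of 9 members was called lower and 0 were called higher, beside 2.54% of all genes tested called lower and 3.36% called higher. At an unadjusted p under 0.05, 1 member was higher and 2 were lower, beside 13.4% and 13.8% of all genes, limma-voom called 0 members higher and 1 lower, beside 2.96% and 2.42%, and DESeq2 called 1 higher and 2 lower, beside 8.91% and 7.31%. Both receptors that transmit the signal, Tgfbr1 and Tgfbr2, the latent binding proteins and Tgfbi differed between groups by amounts that did not pass the test.

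**Figure D1:**
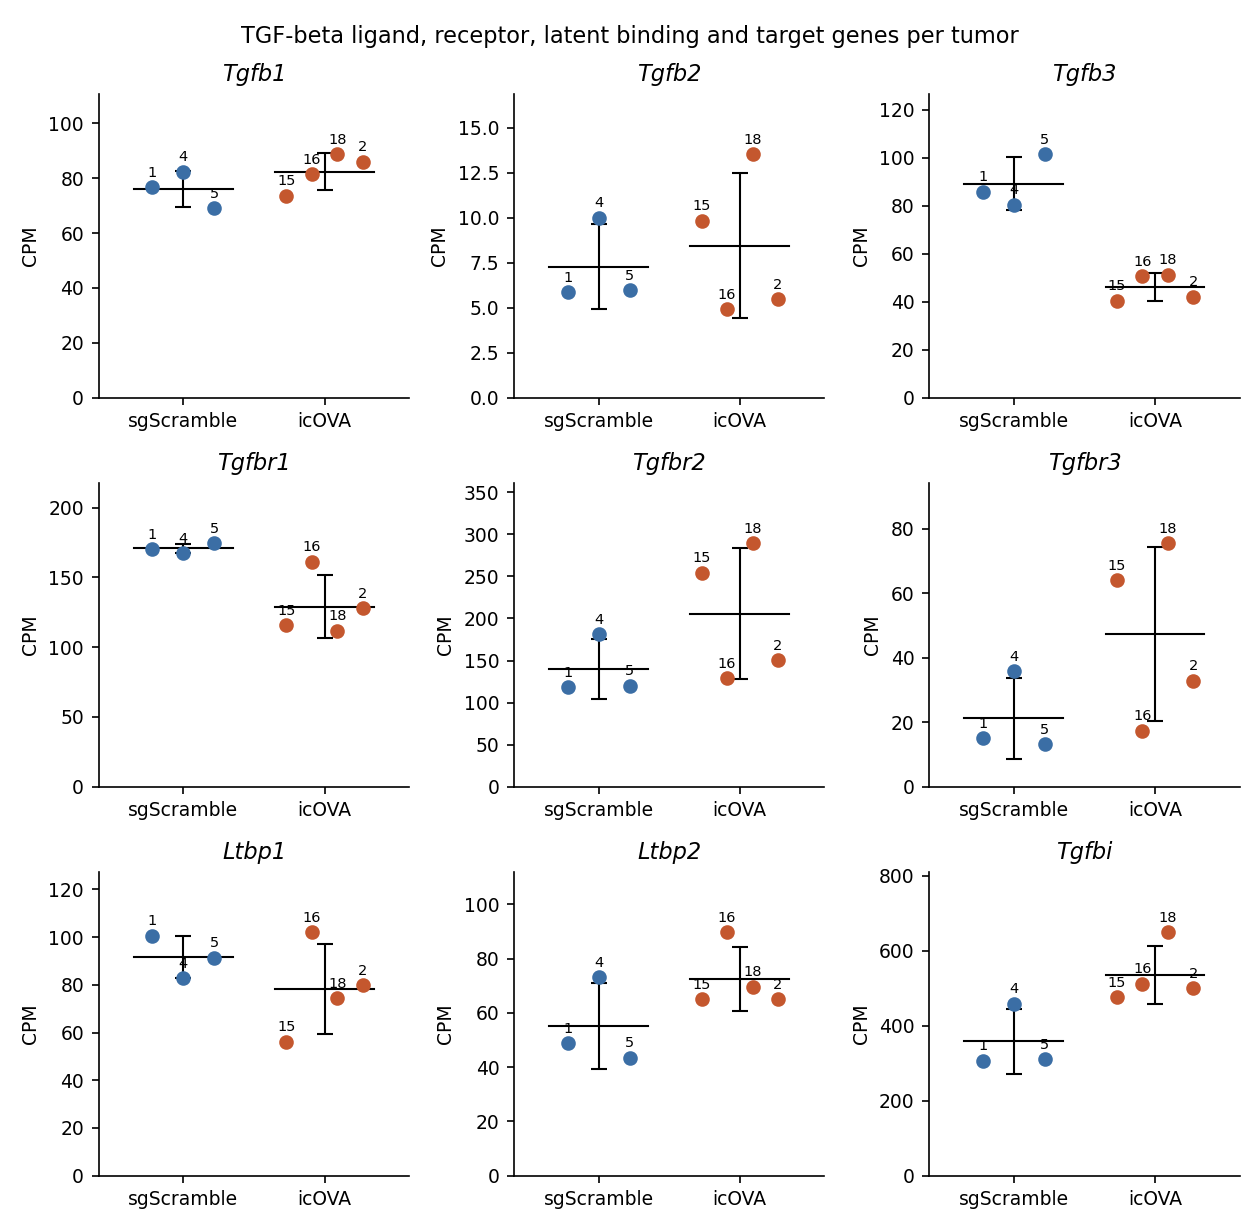
Each panel plots the CPM of 1 gene on a linear axis from 0, with 1 point for each tumor labelled by its number, the group mean as a horizontal line and the SD as a bar (n = 3 sgScramble, n = 4 icOVA). The Tgfb3 points of the 4 icOVA tumors all lie below those of the 3 sgScramble tumors, while Tgfb2, Tgfbr2 and Tgfbr3 are high in sgScramble tumor 4 and in icOVA tumors 15 and 18.

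The levels of the 9 genes can be ordered only per length of transcript, here as CPM per kb of annotated exon. In sgScramble tumors the highest was Tgfbi, at 95.2 ± 23.0 CPM per kb (SD, n = 3). Tgfb3 at 26.4 ± 3.23 and Tgfbr1 at 26.1 ± 0.529 CPM per kb came next and did not differ beyond their spread. Below them came Tgfbr2 at 17.1 ± 4.39 and Tgfb1 at 15.1 ± 1.32 CPM per kb, which overlapped in their spread. Ltbp1 at 8.57 ± 0.836 and Ltbp2 at 6.73 ± 1.93 CPM per kb were lower and also overlapped, and Tgfbr3 at 3.26 ± 1.92 and Tgfb2 at 1.26 ± 0.407 CPM per kb were the lowest. In icOVA tumors the order was Tgfbi at 142 ± 20.6 CPM per kb (SD, n = 4), Tgfbr2 at 25.1 ± 9.55, Tgfbr1 at 19.8 ± 3.45, Tgfb1 at 16.4 ± 1.31 and Tgfb3 at 13.6 ± 1.68. Tgfb3 therefore moved from the second place to the fifth, although neighbors among Tgfbr2, Tgfbr1, Tgfb1 and Tgfb3 overlapped in their spread there. The lowest were Ltbp2 at 8.84 ± 1.44, Ltbp1 at 7.31 ± 1.77, Tgfbr3 at 7.25 ± 4.12 and Tgfb2 at 1.46 ± 0.697 CPM per kb.

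Tgfb3 encodes a TGF-beta ligand that embryos need for fusion of the palate. It lies on the minus strand of chromosome 12, at chr12:86056745-86079041. The CPM of Tgfb3 was 85.9, 80.4 and 101 in sgScramble tumors 1, 4 and 5 against 40.4, 50.7, 51.3 and 42.03 in icOVA tumors 15, 16, 18 and 2. Every icOVA tumor was below every sgScramble tumor, with a wide gap between 51.3 and 80.4 CPM. The log2 fold change was -0.95 (SE 0.12, adjusted p = 0.0230, edgeR). At 1352 to 3173 counts per tumor, counting error was small beside the spread between tumors. The direction was the same in all 16 other fits, with log2 fold changes from -1.01 to -0.85. The call was lost without sgScramble tumor 1 (adjusted p = 0.114), sgScramble tumor 5 (0.122), icOVA tumor 15 (0.0725) or icOVA tumor 2 (0.0614), and over all other fits adjusted p ranged from 4.7e-09 to 0.122. In these samples of bulk tumor, fewer cells of a type that makes Tgfb3 and less Tgfb3 RNA per cell cannot be told apart.

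Tgfb1, the ligand that predominates in immune tissues, lies at chr7:25687002-25705077. It had 76.7, 82.4 and 69.1 CPM in sgScramble tumors 1, 4 and 5 against 73.6, 81.4, 88.7 and 86.0 CPM in icOVA tumors 15, 16, 18 and 2. The groups overlapped, and the 7 tumors were close to one another. The log2 fold change of Tgfb1 was 0.12 (SE 0.090, adjusted p = 0.435, edgeR).

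Tgfb2, the ligand that depends most on betaglycan for receptor binding, lies at chr1:186622792-186705989 and was the scarcest of the ligands, at 172 to 470 counts per tumor. It had 5.84, 10.0 and 5.98 CPM in sgScramble tumors 1, 4 and 5 against 9.83, 4.93, 13.5 and 5.47 CPM in icOVA tumors 15, 16, 18 and 2. In each group some tumors were high, sgScramble tumor 4 in the first and icOVA tumors 15 and 18 in the other, and the remaining tumors of both groups were alike at about the same low level. On the log2 scale the fold change of Tgfb2 was 0.21 (SE 0.39, adjusted p = 0.753, edgeR), and the sign turned without icOVA tumor 18, where it was -0.11.

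The fall in Tgfb3 changed the makeup of ligand mRNA. Of the CPM per kb summed over the 3 ligands, Tgfb3 made up 61.0%, 56.8% and 67.0% in sgScramble tumors 1, 4 and 5 but 42.3%, 46.8%, 43.2% and 40.8% in icOVA tumors 15, 16, 18 and 2. Tgfb1 made up 36.6%, 39.1% and 30.7% in the former and 51.7%, 50.5%, 50.1% and 56.1% in the latter. The ratio of Tgfb3 to Tgfb1, each per kb, was therefore above 1 in all 3 sgScramble tumors (1.67, 1.45 and 2.19) and below 1 in all 4 icOVA tumors (0.819, 0.927, 0.862 and 0.728). Tgfb2 contributed between 2.31% and 6.65%. The sum of the ligands was 42.7 ± 1.75 CPM per kb (SD, n = 3) in sgScramble tumors and 31.4 ± 2.88 CPM per kb (SD, n = 4) in icOVA tumors. These shares rest on the annotated exon lengths, and they describe mRNA, not secreted or active ligand.

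**Figure D2:**
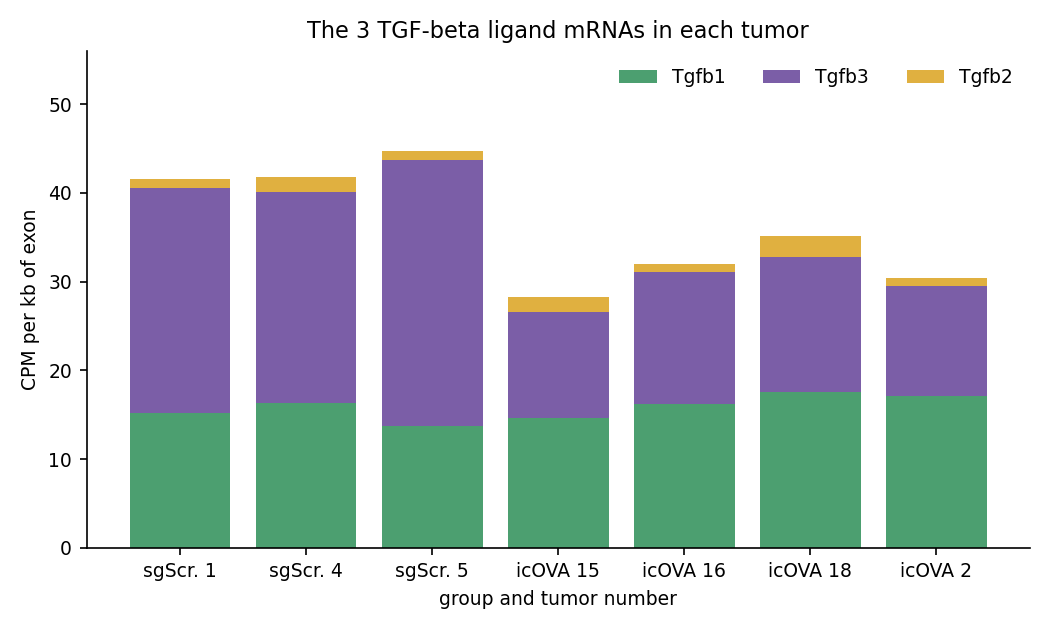
Stacked bars show, for each of the 7 tumors, the CPM per kb of exon of Tgfb1, Tgfb3 and Tgfb2 on a linear axis from 0. The Tgfb3 segment is the largest in each of the 3 sgScramble tumors and Tgfb1 the largest in each of the 4 icOVA tumors, while the whole bar has a mean of 42.7 in the former and 31.4 CPM per kb in the latter.

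Among the receptors, Tgfbr1 and Tgfbr2 had fold changes of opposite sign, neither of which passed the test. Tgfbr1, the kinase that phosphorylates SMAD2 and SMAD3, lies at chr4:47353222-47414931. Its CPM was 170.3, 168 and 174 in sgScramble tumors 1, 4 and 5 against 116, 161, 112 and 128 in icOVA tumors 15, 16, 18 and 2. All 4 icOVA tumors were below the sgScramble tumors, which varied little, but icOVA tumor 16 came close to them. The log2 fold change was -0.40 (SE 0.13, adjusted p = 0.0951, edgeR).

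Tgfbr2, the constitutively active kinase that binds ligand first and activates Tgfbr1, lies at chr9:116084293-116175360. It had 118, 181 and 120.2 CPM in sgScramble tumors 1, 4 and 5 against 255, 129, 289 and 151 CPM in icOVA tumors 15, 16, 18 and 2. Tumors 15 and 18 of the icOVA group were the highest, yet icOVA tumors 16 and 2 were below sgScramble tumor 4, so the groups overlapped. The log2 fold change was 0.56 (SE 0.31, adjusted p = 0.282, edgeR). Tgfbr3, which encodes betaglycan, a coreceptor that presents ligand to Tgfbr2, lies at chr5:107106570-107289629. It showed the same order among the highest tumors, at 14.97, 35.8 and 13.2 CPM in sgScramble tumors 1, 4 and 5 against 64.1, 17.3, 75.5 and 32.9 CPM in icOVA tumors 15, 16, 18 and 2. Its log2 fold change of 1.16 was the largest of the 9 in size but came with an SE of 0.56 (adjusted p = 0.225, edgeR). Per kb, the ratio of Tgfbr2 to Tgfbr1 was 0.553, 0.864 and 0.550 in the sgScramble tumors and 1.76, 0.638, 2.07 and 0.940 in the icOVA tumors, so that it passed 1 in icOVA tumors 15 and 18 alone.

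The latent binding proteins differed in sign as well. Ltbp1, which is disulfide-bonded to latent TGF-beta and anchors it in the matrix, lies at chr17:75005568-75392512 and had 101, 82.8 and 91.4 CPM in sgScramble tumors 1, 4 and 5 against 56.2, 102, 74.4 and 79.9 CPM in icOVA tumors 15, 16, 18 and 2. The icOVA values lay on both sides of the sgScramble values (log2 fold change -0.23, SE 0.18, adjusted p = 0.446, edgeR). Ltbp2, a fibrillin-binding relative that does not bind latent TGF-beta, lies at chr12:84783212-84876532 on the same chromosome as Tgfb3. It had 48.7, 73.1 and 43.4 CPM in sgScramble tumors 1, 4 and 5 against 65.04, 89.7, 69.7 and 65.01 CPM in icOVA tumors 15, 16, 18 and 2. Tumor 4 alone among the sgScramble tumors reached the icOVA range. The log2 fold change was 0.39 (SE 0.20, adjusted p = 0.240, edgeR).

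Tgfbi, at chr13:56609523-56639562, was the most abundant member per kb. Its CPM was 307, 459 and 311 in sgScramble tumors 1, 4 and 5 against 477, 513, 649 and 501 in icOVA tumors 15, 16, 18 and 2. Every icOVA tumor exceeded every sgScramble tumor, by a small margin over sgScramble tumor 4 and by a wide one over sgScramble tumors 1 and 5. The log2 fold change was 0.58 (SE 0.17, adjusted p = 0.0899, edgeR) and did not pass the test.

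Groups did not overlap for 3 of the 9 members, Tgfb3 and Tgfbr1 on the lower side and Tgfbi on the higher side, beside 13.3% and 11.3% of all genes tested. The median log2 fold change was 0.21 over the 9 members and -0.0048 over all genes tested. Some calls rested on the tool or on a single tumor. With DESeq2, Tgfbr1 (log2 fold change -0.39, adjusted p = 0.0403) and Tgfbi (0.59, adjusted p = 0.0146) were called along with Tgfb3. Over all other fits, the adjusted p ranged from 0.0214 to 0.290 for Tgfbr1 and from 0.0146 to 0.298 for Tgfbi. Without icOVA tumor 16, where 4.15% of genes were called lower, Tgfbr1 was called at -0.53 (adjusted p = 0.0214). Without sgScramble tumor 4, where 4.82% of genes were called higher, Tgfbi at 0.80 (adjusted p = 0.0284) and Ltbp2 at 0.66 (adjusted p = 0.0486, in a range from 0.0486 to 0.560) were called.

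Tumors that were high in Tgfb2, Tgfbr2 and Tgfbr3 were also high in fibroblast genes. The summed CPM of 9 fibroblast markers, led by Col3a1, was 7297, 15970.5 and 6834 in sgScramble tumors 1, 4 and 5 against 26947, 5781, 37113 and 9367 in icOVA tumors 15, 16, 18 and 2. Of the 9 markers, 0 were called by edgeR, limma-voom or DESeq2 and 1 had an unadjusted p under 0.05 in edgeR. The groups overlapped for each of them, and none was at 0 in any tumor. Of these markers, Col1a1, Col1a2 and Col3a1 are also in the list of transcriptional targets below, and Dcn is in that of extracellular modulators. The order of the 3 highest tumors, 18, 15 and then 4, was also that of Tgfbr2 and Tgfbr3, while Tgfb2 had 18 first and tumors 4 and 15 close together. Tgfb3 did not share this order: sgScramble tumor 4 and icOVA tumors 15 and 18 each had a Tgfb3 level near that of their own group.

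A fit with the log2 of that sum as a covariate was added after these values were seen. In it Tgfb3 had a log2 fold change of -0.92 (adjusted p = 0.00849, in a range from 4.7e-09 to 0.122 over all other fits) and was again the 1 member called, beside 4.12% of genes called lower and 5.35% called higher. The log2 fold changes of Tgfbr2 and Tgfbr3 became 0.17 (adjusted p = 0.123) and 0.49 (adjusted p = 0.0875), and that of Tgfb2 became -0.26 (adjusted p = 0.230). For Tgfbr1 it was -0.31 (adjusted p = 0.0535) and for Tgfbi 0.48 (adjusted p = 0.0877). The marker sum includes listed targets of the pathway, so fibroblast content and pathway output cannot be told apart in this fit. The part of fibroblasts in the levels of Tgfb2, Tgfbr2 and Tgfbr3 was not tested.

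**Figure D3:**
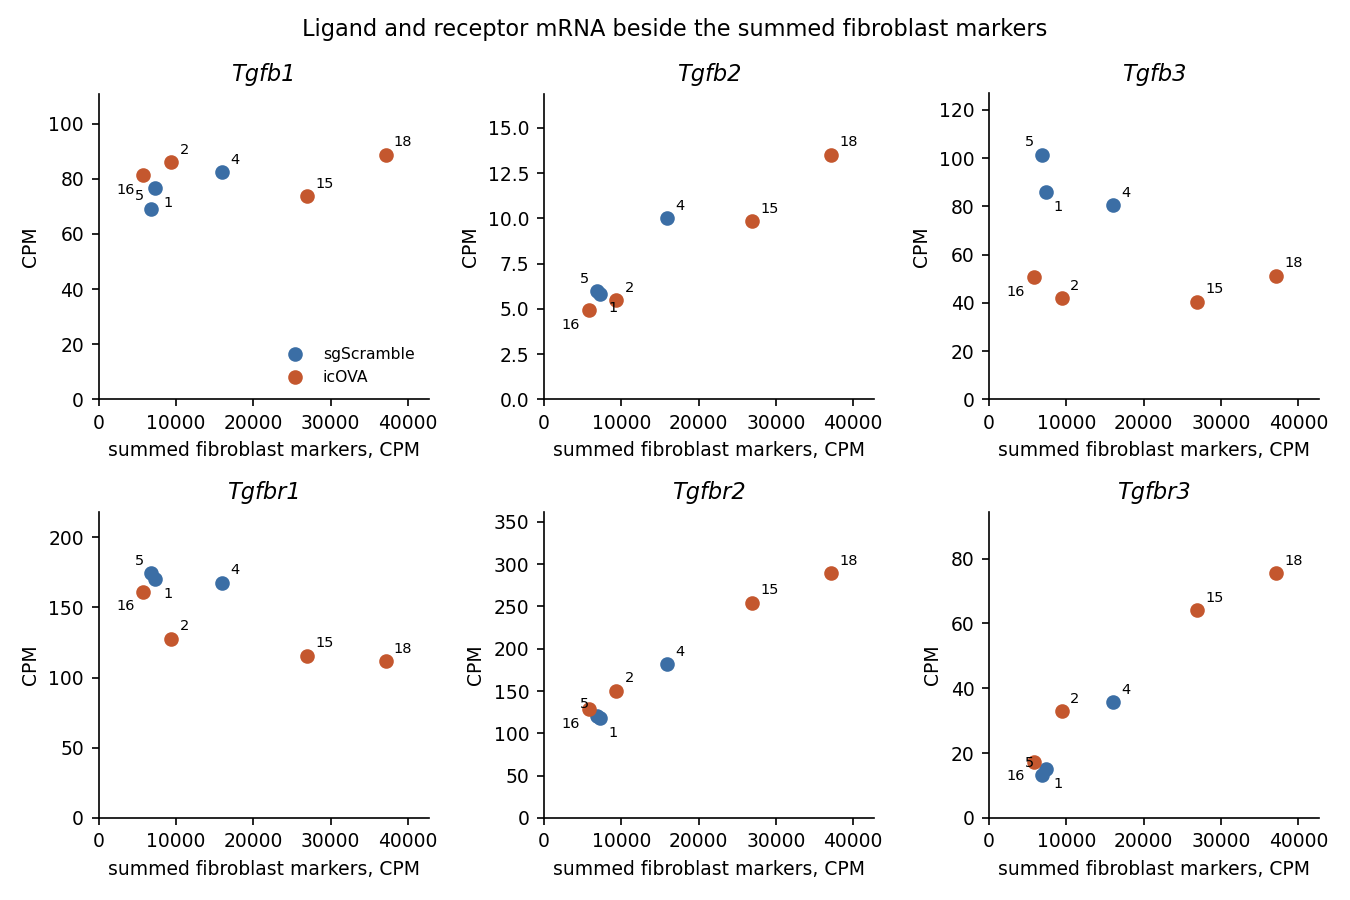
Each panel plots the CPM of a ligand or receptor gene on a linear axis from 0 against the summed CPM of 9 fibroblast markers, with 1 point for each of the 7 tumors, labelled by its number. Points for Tgfb2, Tgfbr2 and Tgfbr3 are highest in each group at the highest marker sums, whereas for Tgfb3 the points of the 3 sgScramble tumors, at marker sums up to 15970.5 CPM, lie above those of the 4 icOVA tumors, at sums up to 37113 CPM.

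Endothelial markers, which include genes of vessels that also carry receptors of this family, summed to 230, 297 and 206 CPM in sgScramble tumors 1, 4 and 5 against 453, 229.5, 607 and 374 CPM in icOVA tumors 15, 16, 18 and 2, led by Pecam1. Of these 7, 0 were called by edgeR, 6 were higher at an unadjusted p under 0.05, beside 13.4% of all genes, and DESeq2 called 4 higher, beside 8.91%. Pericyte and smooth muscle markers, led by Acta2, summed to 235, 448 and 274 CPM and to 421, 304, 602 and 343 CPM in the same order, and 1 of 7, the contractile gene Cnn1, was called lower, beside 2.54% of all genes. The call of Cnn1 was lost in limma-voom (-1.45, adjusted p = 0.0506), without sgScramble tumor 4 (-1.19, adjusted p = 0.0745) and without icOVA tumor 16 (-1.47, adjusted p = 0.0535), among other fits. At an unadjusted p under 0.05, 2 of these 7 were higher and 1 was lower, and DESeq2 called Cnn1 lower and the pericyte gene Rgs5 higher (1.18, adjusted p = 0.0182). The same tumors, 4, 15 and 18, were thus the highest of their groups in these 2 sums as in that of fibroblast genes. Acta2 is also in the list of transcriptional targets below, and the cells that these markers came from were not tested. Single markers could differ: Vwf was lowest of its group in sgScramble tumor 4 (34.1 CPM), and Des was highest in icOVA tumor 16 (79.7 CPM). Epithelial cancer cell markers, led by Krt8, summed to 4565, 4359.6 and 4412 CPM and to 4637, 4789, 2877 and 4367 CPM, with icOVA tumor 18 the lowest. Of these 6, 0 were called by edgeR or DESeq2 and 0 had an unadjusted p under 0.05.

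Several immune markers were called higher in icOVA tumors. T cell markers, led by Cd8a, summed to 84.1, 135 and 106 CPM in sgScramble tumors and to 292, 186, 257 and 233 CPM in icOVA tumors, and 6 of 7 were called higher, beside 3.36% of all genes. Regulatory T cell markers, led by Il2ra, summed to 47.2, 43.3 and 39.2 CPM and to 67.7, 52.2, 78.7 and 62.5 CPM, with 1 of 4 called higher, the checkpoint receptor Ctla4. Il2ra and Ctla4 were higher without overlap, while the groups overlapped for the other 2, Foxp3 and Ikzf2. Macrophage markers, led by C1qb, summed to 894, 1229.7 and 1024 CPM and to 1588, 1235, 1841 and 1285 CPM, with 1 of 7, Cd68, called higher. At an unadjusted p under 0.05, 6 of these 7 were higher, beside 13.4% of all genes, DESeq2 called 5 higher, beside 8.91%, and limma-voom called 2 higher, beside 2.96%. B and plasma cell markers, led by Igkc, summed to 4.63, 3.65 and 3.90 CPM and to 25.9, 21.3, 37.1 and 107 CPM, with 3 of 5 tested called higher and Mzb1 at 0 counts in the sgScramble tumors. The T cell sum separates the groups as Tgfb3 does, in the opposite direction, and the part of immune cells in the level of any member was not tested.

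Markers of tissue near a s/c tumor varied from tumor to tumor. Skeletal muscle markers, led by Acta1, summed to 60.0, 66.9 and 2.56 CPM in sgScramble tumors 1, 4 and 5 against 54.5, 128, 66.8 and 1.90 CPM in icOVA tumors 15, 16, 18 and 2, so that 1 tumor of each group had next to none. Adipocyte markers, led by Fabp4, summed to 33.9, 36.2 and 37.8 CPM and to 63.8, 28.6, 77.1 and 49.8 CPM. Of the 4 tested, Fabp4 had a log2 fold change of 1.18 (SE 0.43). Those of Adipoq (-0.13), Plin1 (-0.24) and Cidec (-0.46) were negative, and Cidec was lower without overlap. Platelet markers, led by Pf4, summed to 11.03, 16.3 and 15.4 CPM and to 19.96, 13.1, 33.7 and 17.8 CPM. Epidermis markers, of which 3 of 5 were analysed here and Krt10 led, stayed between 1.80 and 2.85 CPM in every tumor. Of the 5 muscle, 4 adipocyte, 4 platelet and 1 epidermis genes tested, edgeR called 0. At an unadjusted p under 0.05, 1 platelet gene and 1 adipocyte gene, Fabp4, were higher, and DESeq2 called both. Platelets store TGF-beta protein, and Gp9, a defining platelet gene, had 0 counts in at least 1 tumor.

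Beyond the 9 members, 55 other genes of the pathway were examined in 4 lists, and all passed the filter. Of these, 2 were called higher, Nrros and Cdkn1a, and 3 were called lower, Tab1, Pmepa1 and Tagln, beside the 3.36% and 2.54% of all genes tested given above. Their median log2 fold change was 0.032. Groups did not overlap for 5 on the higher side and 7 on the lower side, beside 11.3% and 13.3% of all genes tested. These shares are not far from those of all genes, and the genes are given one role at a time.

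Of 14 genes of latency and activation, 1 was called. Nrros encodes a membrane protein that holds latent TGF-beta1 on myeloid cells, and it had 23.4, 37.0 and 25.5 CPM in sgScramble tumors 1, 4 and 5 against 65.6, 44.8, 78.1 and 49.6 CPM in icOVA tumors 15, 16, 18 and 2. All icOVA tumors exceeded all sgScramble tumors (log2 fold change 1.06, SE 0.24, adjusted p = 0.0443, edgeR). The summed macrophage markers were also higher in each icOVA tumor than in any sgScramble tumor, as given above. The margin was narrow, at 1235 CPM in icOVA tumor 16 against 1229.7 CPM in sgScramble tumor 4. Groups overlapped for 5 of the 7 markers, and their part in Nrros was not tested. Lrrc32, which encodes GARP, the corresponding anchor on regulatory T cells and platelets, had instead 18.6, 32.8 and 14.9 CPM against 37.1, 14.5, 49.9 and 22.2 CPM, which is the order of the fibroblast markers in its 3 highest tumors (log2 fold change 0.48, SE 0.44, adjusted p = 0.511, edgeR). Fbn1, the fibrillin that latent complexes dock on, had the same 3 highest tumors, at 219, 350.4 and 187 CPM against 411, 190.4, 526 and 207 CPM (log2 fold change 0.40, SE 0.40).

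The main fit called none of the other latency genes. Ltbp3, a latent binding protein that like Ltbp1 carries TGF-beta, had 389, 214 and 365 CPM in sgScramble tumors and 163, 226, 136 and 211 CPM in icOVA tumors, with sgScramble tumor 4 inside the icOVA range (log2 fold change -0.81, SE 0.24, adjusted p = 0.0876, edgeR). Ltbp4 had a log2 fold change of -0.33 (SE 0.24). Furin, the protease that cuts the propeptide, had 0.12 (SE 0.084), and Thbs1, a thrombospondin that can activate latent ligand, had -0.11 (SE 0.068). Among integrin subunits that release ligand from its propeptide, log2 fold changes were 0.032 (SE 0.15) for Itgav, -0.19 (SE 0.24) for Itgb6 and -0.30 (SE 0.24) for Itgb8. Itgb5, named after its values were seen, had 254, 250.7 and 281 CPM in sgScramble tumors 1, 4 and 5 against 156, 197, 216 and 153 CPM in icOVA tumors 15, 16, 18 and 2, with no overlap (log2 fold change -0.54, SE 0.13, adjusted p = 0.0545, edgeR), and DESeq2 called it lower (adjusted p = 0.00586). Ltbp3 was called by DESeq2 (-0.80, adjusted p = 0.0137), with the fibroblast covariate (-0.56, adjusted p = 0.0442) and without sgScramble tumor 4 (-1.03, adjusted p = 0.0325), in a range from 0.0137 to 0.290 over all other fits, and without icOVA tumor 18 Ltbp4 was called, at -0.61 (adjusted p = 0.0250, in a range from 0.0250 to 0.685).

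Of 8 coreceptors and extracellular modulators, the main fit called 0. At an unadjusted p under 0.05, 3 were higher, beside 13.4% of all genes, and DESeq2 called 3 higher, beside 8.91%: Eng, Acvrl1 and Htra1, the last 2 named after their values were seen. Eng, which encodes endoglin, a coreceptor of proliferating endothelium, had 47.8, 68.2 and 42.4 CPM in sgScramble tumors and 91.4, 69.6, 123 and 86.8 CPM in icOVA tumors. The groups were separated by a narrow gap, between sgScramble tumor 4 and icOVA tumor 16 (log2 fold change 0.81, SE 0.22, adjusted p = 0.0723, edgeR). Besides DESeq2, Eng was called with the fibroblast covariate (0.60, adjusted p = 0.0233), without sgScramble tumor 4 (1.05, adjusted p = 0.0404) and without icOVA tumor 16 (0.93, adjusted p = 0.0410), in a range from 0.00565 to 0.257 over all other fits. The covariate fit also called Acvrl1 higher (0.39, adjusted p = 0.0310). Dcn, which encodes decorin, a matrix proteoglycan that binds TGF-beta and is also among the fibroblast markers, had 143, 302 and 127 CPM against 699, 149, 772 and 272 CPM (log2 fold change 1.31, SE 0.60, adjusted p = 0.205, edgeR). Dcn was called with the covariate, of which it is a part (0.48, adjusted p = 0.0301, in a range from 0.0301 to 0.476).

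Of 15 SMADs and intracellular regulators, 1 was called. Tab1, a partner that activates the kinase TAK1 in the branch of the pathway that bypasses SMADs, had 49.5, 46.8 and 50.3 CPM in sgScramble tumors 1, 4 and 5 against 33.3, 36.8, 30.6 and 39.2 CPM in icOVA tumors 15, 16, 18 and 2. The groups did not overlap (log2 fold change -0.48, SE 0.10, adjusted p = 0.0349, edgeR). The signal-carrying SMADs were not called, with log2 fold changes of 0.046 (SE 0.079) for Smad2, -0.22 (SE 0.18) for Smad3 and -0.072 (SE 0.058) for Smad4. Smad6, an inhibitory SMAD named after its values were seen, was lower without overlap (-0.67, SE 0.16, adjusted p = 0.0538, edgeR) and was called by DESeq2 (adjusted p = 0.00550). The fits with the fibroblast covariate (-0.60, adjusted p = 0.0493) and without icOVA tumor 16 (-0.75, adjusted p = 0.0392) also called Smad6. Limma-voom (adjusted p = 0.0538) and the fit without sgScramble tumor 4 (-0.63, adjusted p = 0.0877) did not. Smad3 varied between tumors, from 82.7 CPM in icOVA tumor 18 to 146 CPM in sgScramble tumor 1. Smad7, the inhibitory SMAD that the pathway induces in feedback, had 41.5, 42.7 and 38.4 CPM against 29.6, 42.9, 26.1 and 39.9 CPM. It was low in icOVA tumors 15 and 18 and at the sgScramble level in icOVA tumors 16 and 2 (log2 fold change -0.24, SE 0.17, adjusted p = 0.405, edgeR). Skil, which encodes the corepressor SnoN and is another feedback target, had the same pattern at 193, 181 and 182 CPM against 143, 185, 125 and 176 CPM (log2 fold change -0.23, SE 0.14).

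Of 20 textbook transcriptional targets, 1 was called higher and 2 lower, and 17 were not called. Cdkn1a, which encodes the cell cycle inhibitor p21 and is also a target of p53, had 57.7, 47.0 and 48.1 CPM in sgScramble tumors 1, 4 and 5 against 89.8, 99.2, 81.5 and 107 CPM in icOVA tumors 15, 16, 18 and 2. The groups were far apart (log2 fold change 0.89, SE 0.12, adjusted p = 0.0230, edgeR). Tagln, a gene of the contractile cytoskeleton, had 72.9, 111 and 98.4 CPM against 39.7, 37.9, 63.0 and 49.5 CPM (log2 fold change -0.98, SE 0.21, adjusted p = 0.0381, edgeR). Pmepa1, which encodes a membrane protein that restrains SMAD signaling in feedback, had 248, 249.5 and 256 CPM against 149.7, 193, 189.9 and 189.8 CPM (log2 fold change -0.48, SE 0.10, adjusted p = 0.0370, edgeR). In both Tagln and Pmepa1 every icOVA tumor was below every sgScramble tumor. At an unadjusted p under 0.05, 2 targets were higher and 5 were lower, beside 13.4% and 13.8% of all genes, and DESeq2 called 2 higher and 4 lower, beside 8.91% and 7.31%. Of the targets not called in the main fit, DESeq2 called Ccn2, Zeb2 (0.62, adjusted p = 0.00786) and Cdkn2b (-0.75, adjusted p = 0.0146), the last 2 named after their values were seen. The groups did not overlap for Zeb2 and overlapped for Cdkn2b. The covariate fit also called Zeb2 (0.48, adjusted p = 0.0384), Cdkn2b (-0.56, adjusted p = 0.0123) and Acta2 (-0.63, adjusted p = 0.0447).

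Among targets that did not pass the test, Ccn2, a secreted matricellular protein, had 572, 474 and 629 CPM in sgScramble tumors and 319.8, 351, 138 and 387 CPM in icOVA tumors, with no overlap and with icOVA tumor 18 the lowest (log2 fold change -0.90, SE 0.31, adjusted p = 0.118, edgeR). It was called by DESeq2 (-0.89, adjusted p = 0.0281) and without icOVA tumor 18 (-0.66, adjusted p = 0.0347), and over all other fits its adjusted p ranged from 0.0281 to 0.336. The calls of Nrros, Tab1, Pmepa1, Cdkn1a and Tagln were lost, as was that of Tgfb3, without sgScramble tumor 1, sgScramble tumor 5, icOVA tumor 15 or icOVA tumor 2. Those of Pmepa1 (-0.47, adjusted p = 0.0563) and Tagln (-0.84, adjusted p = 0.0667) were also lost without sgScramble tumor 4, those of Tab1 (-0.43, adjusted p = 0.0538) and Pmepa1 (-0.41, adjusted p = 0.103) under scaling to Tbp, and that of Nrros (0.90, adjusted p = 0.0513) without icOVA tumor 18. Over all other fits adjusted p had a lowest value of 3.36e-09 for Cdkn1a and a highest value of 0.197 for Nrros among these 5 genes.

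**Figure D4:**
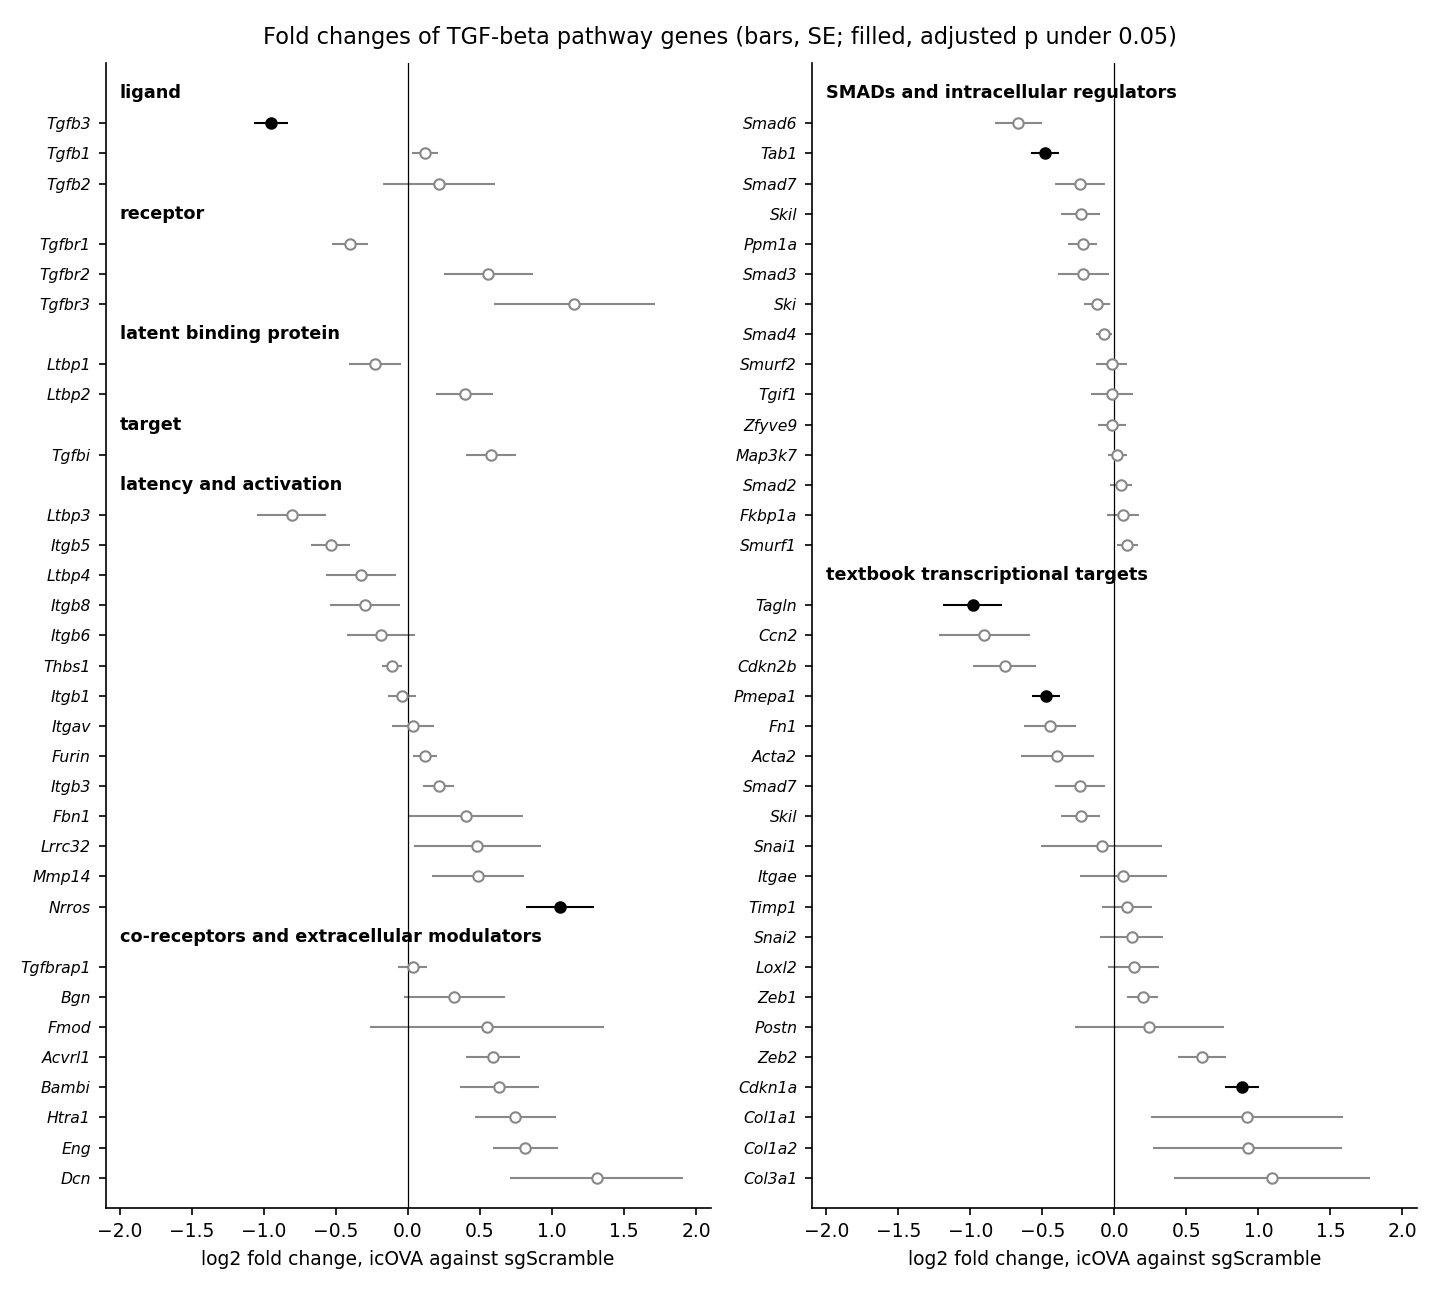
Points give the log2 fold change of each of the 9 members and 55 other pathway genes, icOVA against sgScramble, by role, with the SE as a horizontal bar and filled points for an adjusted p under 0.05 in edgeR's test; Smad7 and Skil stand in 2 lists. Filled points are Tgfb3 at -0.95, Tagln at -0.98, Tab1 and Pmepa1 at -0.48, Cdkn1a at 0.89 and Nrros at 1.06. Wide bars include those of Fmod (SE 0.81), Dcn (SE 0.60) and the receptor gene Tgfbr3 (SE 0.56).

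The genes whose log2 CPM most resembled that of each member over the 7 tumors are given as a description, by Pearson's r among 11978 genes. For Tgfb3 they were Ttll12, Hexdc and Tmc6, with r of 0.993, 0.992 and 0.990. For Tgfbr1 they were Alg2, Tmem138 and Zfp553 (0.994, 0.992 and 0.991), and for Tgfb1 they were Rnf126, Hmga1 and Mgst1 (0.966, 0.962 and 0.955). Tgfb2 was nearest to Mfap4, Arhgap24 and Col6a2 (0.998, 0.996 and 0.993), Tgfbr2 to Arsi, Rnf150 and Gxylt2 (0.998, 0.998 and 0.997) and Tgfbr3 to Bcl6b, Uxt and Dcn (0.994, 0.994 and 0.992). Ltbp1 was nearest to Ift57, Aup1 and Pls3 (0.981, 0.968 and 0.968), Ltbp2 to Exoc2, Tnip3 and Phrf1 (0.984, 0.977 and 0.966) and Tgfbi to Dbnl, Pfas and Chaf1a (0.992, 0.986 and 0.985). Among the members themselves, r was highest for Tgfbr2 with Tgfbr3, at 0.976, and Tgfbr1 with Tgfbr3 had the lowest, at -0.884. With 7 points and this many genes, values near 1 arise readily.

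No member had counts identical to those of another row. The methods name a stranded library kit, but whether reads were counted by strand is not given in the sources used here, so reads from genes that share exonic sequence on the opposite strand cannot be told apart from those of Tgfb3, Tgfb2 and Ltbp2, which have such neighbors in GENCODE M21. The neighbor of Ltbp2, D030025P21Rik, had a mean of 7.43 counts per tumor. On the same strand, Gm43422 overlaps exons of Tgfbr3 and had a mean of 2.57 counts.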

How the data were processed

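Libraries were made from RNA of each s/c tumor with Illumina TruSeq reagents and sequenced as single reads. The labels give polyA RNA, whereas the methods describe a stranded total RNA kit. The authors deposited raw read counts per gene. The submitters' processing notes name the mm10 build. The aligner, the counting tool and the annotation are not given in the sources used here. Of 22628 Ensembl identifiers, 22414 had a symbol.

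Counts were analysed in R 4.3.3 with edgeR 4.0.16 (filterByExpr, minimum count 10 and minimum total 15; TMM; quasi-likelihood test without covariates), after a check on simulated counts. The SE is the size of the log2 fold change divided by the square root of F. Log2 CPM has a prior count of 2. Exon lengths and coordinates are those of GENCODE M21. Alternatives were DESeq2 1.42.0, limma-voom (limma 3.58.1), other scalings and filters, robust dispersion and leaving out each tumor.

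Genes named by rule are the 9 members, OVA, each pathway gene called, 18 preset pathway genes (1 more planned gene, in the list of targets, is not reported here), the most abundant gene of each marker list and, per member, the 3 genes with the highest Pearson r of log2 CPM over 7 tumors among those with a mean CPM of at least 5. Other genes were named after their values were seen. The members and lists were chosen with earlier results of these data known.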

Additional observations from a re-analysis of the deposited data

Results flagged for a closer look

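Among the 4 icOVA tumors, 49 values were examined for a tumor that stands far from the others, by the gap to the nearest tumor divided by the whole range, both on log2 CPM (Dixon's ratio). Of these, 2 were above the critical value for 4 tumors, where chance alone gives about 2.45. Pmepa1 had a ratio of 0.935, because icOVA tumor 15, at 149.7 CPM, was far below the other icOVA tumors, which lay between 189.8 and 193 CPM. The summed epidermis markers had a ratio of 0.960, because icOVA tumor 18, at 2.85 CPM, was above the others, which lay between 1.80 and 1.84 CPM. Groups of 3 tumors were not examined in this way. No ratio for a TGF-beta ligand, receptor, latent binding protein or Tgfbi was above that value.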

How the results depend on the processing

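No paired analysis was possible because no tumor number occurs in both groups. Under limma-voom, total counts, upper quartile, robust dispersion and both other filters, every count of calls stayed within 1.5 times its main value, and Tgfb3 was called in each. DESeq2 called 1558 genes higher and 1278 lower, members 1 higher and 2 lower, and other pathway genes 6 higher and 8 lower. Scaled to Tbp, 631 genes were called higher and 199 lower, against 588 and 444, pathway genes lower numbered 1, and the mean of Tgfbr1 in sgScramble tumors was 167 CPM. With fibroblast markers as a covariate, chosen after seeing the data, 936 genes were higher and 721 lower, with 6 and 7 pathway genes; among members and genes named in advance or called, signs turned for Tgfb2 (-0.26), Lrrc32 (-0.070) and Fbn1 (-0.095). With 1 tumor left out, genes called higher ran from 0 to 1014 and lower from 0 to 716, members from 0 to 2 in each direction, and pathway genes from 0 to 4 higher and 0 to 6 lower. No gene at all was called on leaving out sgScramble tumors 1 or 5 or icOVA tumor 15, with 3087, 2936 and 3415 genes that had an unadjusted p under 0.05 in edgeR; without icOVA tumor 2, 6 genes were higher and 2 lower, with 4008 at that unadjusted threshold. Signs turned for Tgfb2 without icOVA tumor 18 (from -0.11 to 0.52 over these fits) and for Itgav without icOVA tumor 16 (from -0.076 to 0.14). Causes were not tested. Of 63 fits of members with 1 tumor left out, 55 kept sign and side of the threshold. This number does not measure stability, because members not called in the main fit could not change side where no gene was called. The call of Tgfb3 was lost without sgScramble tumors 1 or 5 or icOVA tumors 15 or 2.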
